A study of Mus musculus with 2 samples.

Results

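The genes that transcribe replication-dependent histone mRNAs and cut their 3′ ends were followed in the non-polyadenylated (NPA) RNA of mouse embryonic stem cells (ESCs) and of ESC-derived neuronal progenitor cells (NPCs). The set held 10 genes, *Npat*, *Casp8ap2*, *Slbp*, *Eri1*, *Lsm10*, *Lsm11*, *Cpsf2*, *Cpsf3*, *Sympk* and *Cstf2*, out of the 37310 genes of the GENCODE release M1 annotation of the mouse genome build mm9. They were listed by name for their known part in histone mRNA metabolism, and all 10 passed the minimum of 10 reads in both libraries together, as did 14859 genes in all. Reads were counted on the strand of each gene when they overlapped its exons by at least 1 base.

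The study sequenced NPA RNA strand-specifically to compare ESCs with NPCs, with 1 library for each. The ESCs were male R1 cells at passage 18, grown on mouse embryonic fibroblast feeders, and the NPCs were derived from them through 4 days as embryoid bodies and gathered on day 7. The labels name no altered allele or added agent in either group. The deposited lists hold 4271306 reads for ESCs and 4399729 for NPCs, so that 1 read was worth 0.234 RPM, the number of reads scaled to a fixed library total, in ESCs and 0.227 in NPCs. With 1 library per group there is no replicate check and no test between cell types was made, so every ratio below compares these libraries. Intervals are at the 95% level and cover counting error only, because PCR copies of a fragment cannot be told from separate molecules.

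Replication-dependent histone mRNAs are the metazoan mRNAs that end without a poly(A) tail. Their 3′ end is a conserved stem-loop followed by a cut a few bases downstream. The stem-loop binding protein, encoded by *Slbp*, holds the stem-loop from processing through translation, and the U7 small nuclear ribonucleoprotein pairs with a purine-rich element beyond the cut and brings in the cleavage complex. Supply of these mRNAs rises in S phase, when new DNA has to be packed into chromatin, and the factors that make them gather at histone locus bodies in the nucleus. The mRNAs of the factors themselves are ordinary polyadenylated messages. Their reads here come from RNA left after oligo(dT) removal, and the form of that RNA was not tested.

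The labelled cell types were compared with their markers, since the ratios of the factors rest on them. All 12 pluripotency genes were lower in NPCs, 10 of them more than 2-fold, beside 13.3% of all genes more than 2-fold lower. Together they held 2507 RPM in ESCs and 704.8 RPM in NPCs, with *Pou5f1* the most abundant at 2623 and 724 reads. Of the 11 neural progenitor genes found, 4 passed the minimum of 10 reads, and the list held 65.1 RPM in ESCs and 67.5 RPM in NPCs. Its most abundant gene, *Tubb3*, had 109 and 87 reads, *Nes* had 66 and 121, *Msi1* had 99 and 60, *Pax6* had 1 and 12, *Sox3* had 0 and 5, *Fabp7* had 0 and 2, and *Olig2* was at 0 in both. Genes of extraembryonic endoderm were far higher in the library labelled NPC, 13203 RPM against 691.1 RPM over 14 genes, led by *Col4a1* with 856 and 20753 reads. *Gata4* had 61 and 1179 reads, *Gata6* 8 and 459, and *Afp* 1 and 141. Fibroblast genes, which feeder cells could carry, held 56.7 RPM in ESCs and 65.0 RPM in NPCs over 10 genes, with *Col1a2*, the most abundant over both, at 51 and 165 reads, *Thy1* at 79 and 12, *Col6a3* at 42 and 15, and *Lum* at 0 in both. In the library labelled NPC, *Nes*, *Tubb3* and *Msi1* were thus detected while *Pax6*, *Sox3*, *Fabp7* and *Olig2* had 12 reads or fewer, and endoderm markers moved with the label. Their part in the ratios of the histone mRNA factors was not tested, and fewer cells of a type cannot be told apart from less RNA per cell in bulk samples.

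The substrate of the set was located first. After the stop codon of the 67 annotated protein-coding replication-dependent histone genes, a 16-nt hairpin that opens with GG, has a loop opening with TT and pairs over 6 bases with at most 1 mismatch was found within 200 nt in 59 genes, and 58 of these stems paired without a mismatch. The most frequent forms are shown because they are what *Slbp* and *Eri1* products bind. Capitals mark the stem-loop, written as DNA from 5′ to 3′.
Form in 36 genes: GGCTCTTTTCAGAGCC
Form in 9 genes: GGCTCTTTTAAGAGCC
Form in 8 genes: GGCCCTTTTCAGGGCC
Form in 2 genes: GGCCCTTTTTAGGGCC
Form in a further 2 genes: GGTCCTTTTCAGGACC
A further 2 forms were found in 1 gene each. The forms shown differ in the loop or in matched pairs of stem bases, so that the stem stays paired. In its setting, the stem-loop of *Hist1h1a*, the histone gene with the most ESC reads among these 59, reads as follows.
Stem-loop of *Hist1h1a* with 5 bases on each side, plus strand, mm9 chr13:23856256-23856281: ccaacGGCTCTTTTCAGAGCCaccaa
The *Hist1h1a* site begins 36 nt after the stop codon, and the gene held 5806 reads in ESCs and 2970 in NPCs.

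Across the set, read counts in the NPC library were close to or somewhat above those in the ESC library. Counted together, the 10 genes held 2378 reads in ESCs (556.7 RPM, exact Poisson interval 534.6 to 579.6) and 3231 in NPCs (734.4 RPM, 709.3 to 760.1). The summed ratio of NPC to ESC was 1.32 (conditional binomial interval 1.25 to 1.39). Of the 10 genes, 8 had a higher scaled count in NPCs and 2 had a lower one, and their median log2 ratio was 0.38, with a range from -0.44 to 0.73. Over all 14859 genes the median log2 ratio was 0.35, and 62.9% of the genes were higher in NPCs. The factors as a list sat at 0.04 above this median on the log2 scale, with 6 members above it and 4 below it. All 10 are protein-coding, and over the 12711 protein-coding genes, of which 65.6% were higher in NPCs, the median was 0.42, with 4 members above it and 6 below it. The list thus lay slightly above the one median and slightly below the other. None of the 10 was more than 2-fold apart, the size used here as a call, whereas 38.8% of all genes were, with 25.5% of all genes more than 2-fold higher and 13.3% more than 2-fold lower in NPCs. For 8 of the 10 the whole interval of the ratio lay inside 2-fold, and the exceptions were *Slbp* and *Lsm10*. The interval held a ratio of 1 for 4 members and held the median of all genes for 5. Against the protein-coding median, *Lsm10* lay wholly below it and the interval of *Eri1* held it.

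**Figure D1:**
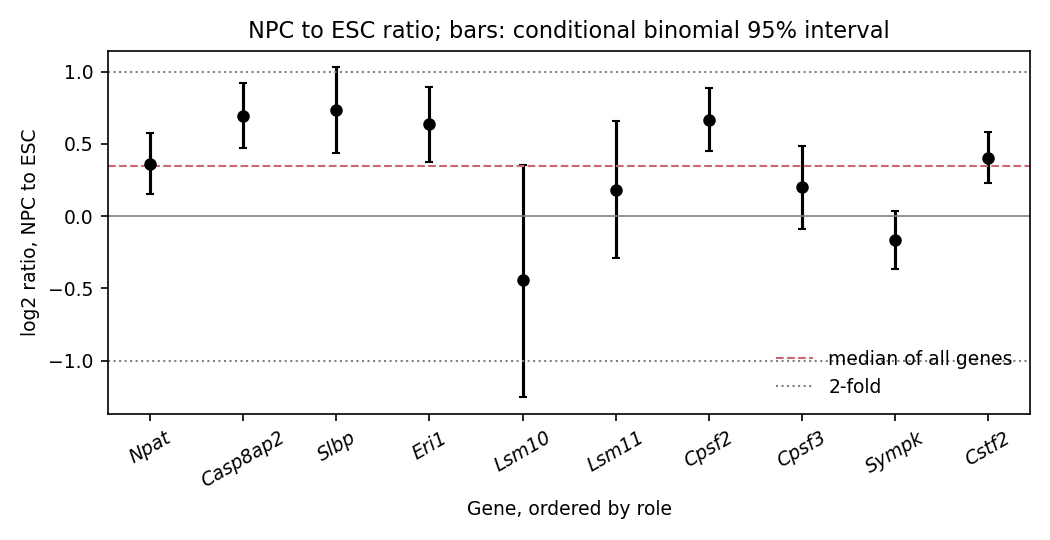
Log2 ratio of NPC to ESC reads (y axis) for each of the 10 factors (x axis, ordered by role), from 1 library per cell type. Points are ratios scaled by library totals, bars are conditional binomial 95% intervals, the dashed line is the median of all genes at 0.35 and dotted lines mark 2-fold; no point lies beyond 2-fold, and *Lsm10* and *Sympk* are the only points below 0.

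*Npat* and *Casp8ap2* act at the level of transcription and of the histone locus body. *Npat* encodes a cyclin E and Cdk2 substrate that activates histone promoters, and it lies on mm9 chr9:53345152-53382447 on the plus strand. The gene held 329 reads in ESCs, or 12.3 RPKM, which is RPM per kilobase of exon (11.0 to 13.7), and 436 in NPCs, or 15.9 RPKM (14.4 to 17.4). Its Poisson intervals do not overlap, and the log2 ratio was 0.36 (0.15 to 0.57), at percentile 50.5 of all genes. *Npat* shares its promoter region with *Atm*, the DNA damage kinase gene on the opposite strand, whose annotated start is 307 nt away. *Atm* held 278 reads in ESCs and 369 in NPCs, a log2 ratio of 0.37 (0.14 to 0.60). Both ratios of this head-to-head pair lay close to the median of all genes. The other members with an opposite-strand gene starting within 1000 nt were *Cpsf3*, whose neighbour *Itgb1bp1* at 60 nt had a log2 ratio of 0.91 (0.29 to 1.57), and *Sympk*, whose neighbour *Foxa3* at 839 nt had 0.32 (-1.27 to 1.98) from 7 and 9 reads. *Casp8ap2*, also known as FLASH, encodes a histone locus body protein that binds the Lsm11 protein and helps to recruit the cleavage complex. This gene (chr4:32702426-32740240, plus strand) held 258 reads in ESCs, or 8.85 RPKM (7.80 to 10.0), and 430 in NPCs, or 14.3 RPKM (13.0 to 15.7). The log2 ratio of *Casp8ap2* was 0.69 (0.47 to 0.92), and its interval lay wholly above the median of all genes.

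*Slbp* and *Eri1* encode the proteins that sit on the stem-loop itself, the binding protein on one side of the stem and a 3′ exonuclease, which trims the end after the cut and takes part in decay, on the other. The *Slbp* gene (chr5:33977601-33995223, minus strand) held 153 reads in ESCs, or 8.01 RPKM (6.79 to 9.38), and 262 in NPCs, or 13.3 RPKM (11.8 to 15.0). Its log2 ratio of 0.73 (0.44 to 1.03) was the highest of the 10 and lay at percentile 65.3 of all genes. Part of the *Slbp* count is uncertain, since 32 of its read sequences occur elsewhere in mm9, at places that include chromosomes 5 and 14. These sequences gave 13 reads at *Slbp* in ESCs and 30 in NPCs, and a further 24 and 37 reads were listed at the other places. With sequences that occur once alone, the log2 ratio was 0.70. *Eri1* (chr8:36528319-36558587, minus strand) held 202 reads in ESCs, or 9.33 RPKM (8.09 to 10.7), and 323 in NPCs, or 14.5 RPKM (13.0 to 16.2). The log2 ratio was 0.63 (0.38 to 0.90). As a pair, the stem-loop factors had the highest summed ratio of the role groups, 1.60 (1.40 to 1.83), against 1.43 (1.29 to 1.59) for the transcription pair, 1.22 (1.13 to 1.31) for the 4 cleavage genes and 1.01 (0.763 to 1.33) for the U7-specific pair. The intervals of the stem-loop pair and of the U7-specific pair do not overlap.

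*Eri1* was the member whose coding and untranslated shares differed between the libraries by more than their intervals. In ESCs 66 of the 201 reads placed on its transcript lay in the coding sequence, or 32.8% (Clopper-Pearson interval 26.4 to 39.8%), and 135 lay in the 3′ UTR. In NPCs the coding sequence held 148 of 318 reads, or 46.5% (41.0 to 52.2%), and the 3′ UTR held 170. The intervals of these shares do not overlap, with reads that share a start counted as separate. With reads placed by their 5′ end, the log2 ratio of *Eri1* was 1.12 (0.69 to 1.56) over the coding sequence and 0.29 (-0.04 to 0.63) over its 3′ UTR. Counting any overlap with the coding sequence gave 1.15. Both coding values are past 2-fold, but the interval reaches below it. The start position with the most reads in *Eri1* lay in the 3′ UTR and held 26 reads in ESCs and 18 in NPCs. These are among the 135 and 170 reads of the 3′ UTR. Whether the intervals stay apart without this position was not tested.

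*Lsm10* and *Lsm11* encode the ring proteins that replace a pair of the ordinary Sm proteins in the U7 particle and so set it apart from the spliceosomal ones. They were the members with the fewest reads. *Lsm10* (chr4:125773867-125775828, plus strand) is the shortest of the set, with 943 nt of exon, and held 33 reads in ESCs, or 8.19 RPKM (5.64 to 11.5), and 25 in NPCs, or 6.03 RPKM (3.90 to 8.90). The intervals of *Lsm10* overlap, and its log2 ratio of -0.44 (-1.25 to 0.35) holds both 0 and the median of all genes. *Lsm11* (chr11:45741771-45758437, minus strand) held 71 reads in ESCs, or 2.58 RPKM (2.01 to 3.25), and 83 in NPCs, or 2.92 RPKM (2.33 to 3.62). Its log2 ratio was 0.18 (-0.29 to 0.66), and *Lsm11* was the lowest gene per length in both libraries. The RNA partner of these proteins gave no reads. All 116 genes called U7 in the annotation, which are 46 to 66 nt long, were listed with 0 reads in both libraries on either strand. The floor set here for a count of 0 was 3 reads, or 0.702 RPM in ESCs and 0.682 RPM in NPCs. It is a set value, not an exact Poisson interval, and does not cover reads filtered out. The authors selected library fragments by size and filtered out reads in Repeat Masker regions, and the part of either step in the count of 0 was not tested.

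The cleavage genes are shared with the machinery that cuts polyadenylated mRNAs. *Cpsf3* encodes the endonuclease, *Cpsf2* its catalytically inactive partner, *Sympk* the symplekin scaffold and *Cstf2* an RNA-binding subunit of the cleavage stimulation factor that is also found in the histone complex. *Cpsf2* (chr12:103214184-103244203, plus strand) held 281 reads in ESCs, or 12.4 RPKM (11.0 to 13.9), and 460 in NPCs, or 19.7 RPKM (17.9 to 21.6), a log2 ratio of 0.67 (0.45 to 0.89). *Cpsf3* (chr12:21292158-21320917, plus strand) held 187 reads in ESCs, or 17.1 RPKM (14.7 to 19.7), and 221 in NPCs, or 19.6 RPKM (17.1 to 22.4). Its log2 ratio was 0.20 (-0.09 to 0.49). Over all annotated exons, the levels of *Cpsf2* and *Cpsf3* could not be told apart in NPCs, at 1.00-fold (0.852 to 1.18). In ESCs the interval of *Cpsf3* over these exons lay above that of *Cpsf2*, while over coding sequence alone each had 19.1 RPKM. *Sympk* (chr7:19609726-19639967, plus strand) held 422 reads in ESCs, or 12.7 RPKM (11.5 to 14.0), and 388 in NPCs, or 11.3 RPKM (10.2 to 12.5), a log2 ratio of -0.16 (-0.37 to 0.04). The interval of *Sympk* held 0 and lay wholly below the median of all genes. *Cstf2* (chrX:130593726-130621358, plus strand) held the most reads of the set, 442 in ESCs, or 11.3 RPKM (10.2 to 12.4), and 603 in NPCs, or 14.9 RPKM (13.8 to 16.2). Its log2 ratio was 0.41 (0.23 to 0.59). A single terminal exon block of *Cstf2* (chrX:130618771-130621358), mostly 3′ UTR of its longer transcripts, held 198 of these reads in ESCs and 292 in NPCs, or 44.8% and 48.4% of the gene.

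**Figure D2:**
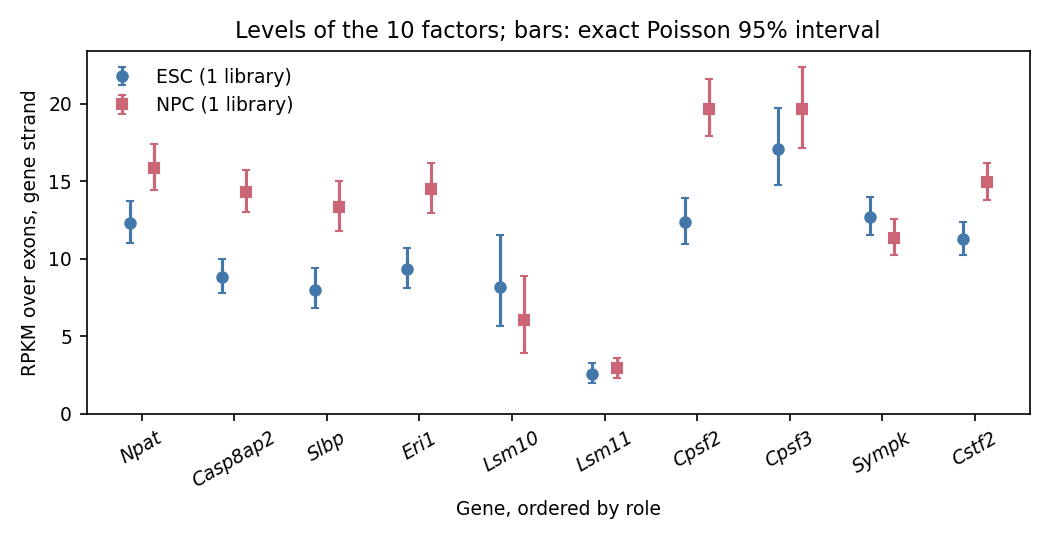
Level of each factor in RPKM over its exons (y axis, linear from 0) in the ESC library (circles) and the NPC library (squares), with genes on the x axis ordered by role and exact Poisson 95% intervals as bars. *Lsm11* is lowest in both libraries at 2.58 and 2.92 RPKM. Over all annotated exons, as plotted, *Cpsf3* in ESCs and *Cpsf2* and *Cpsf3* in NPCs are highest.

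Per length of all annotated exons, the levels of the set spanned 6.64-fold in ESCs and 6.73-fold in NPCs. The order in ESCs over these exons was *Cpsf3*, *Sympk*, *Cpsf2*, *Npat*, *Cstf2*, *Eri1*, *Casp8ap2*, *Lsm10*, *Slbp* and *Lsm11*. Of the 9 neighbouring pairs in that order, 6 could not be told apart by their counting intervals. The steps that could were *Cpsf3* over *Sympk*, 1.35-fold (1.13 to 1.60), *Cstf2* over *Eri1*, 1.21-fold (1.02 to 1.43), and *Slbp* over *Lsm11*, 3.11-fold (2.33 to 4.18). In NPCs the order over the same exons was *Cpsf2*, *Cpsf3*, *Npat*, *Cstf2*, *Eri1*, *Casp8ap2*, *Slbp*, *Sympk*, *Lsm10* and *Lsm11*, and 5 of the 9 neighbours could not be told apart. *Sympk* went from the second place to the eighth between these orders. *Sympk* over *Lsm10*, 1.88-fold (1.26 to 2.94), and *Lsm10* over *Lsm11*, 2.06-fold (1.26 to 3.26), were the largest steps in NPCs. Among the 12711 protein-coding genes with at least 10 reads, the RPKM of *Cpsf3* stood at percentile 83.9 in ESCs and 81.4 in NPCs, and that of *Lsm11* at 36.8 and 32.3.

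Reads of the set came mainly from exons and from the gene strand. Over the exons of the 10 genes the opposite strand held 3 reads in ESCs, 1 each in *Slbp*, *Lsm11* and *Eri1*, and 0 in NPCs. Introns held 230 reads in ESCs, or 1.13 per kilobase against 43.4 per kilobase of exon, and 324 in NPCs, or 1.59 against 58.9. The intron share of a gene's reads was below the median of protein-coding genes, 14.3% in ESCs and 13.0% in NPCs, for 9 of the 10 members in ESCs and for 8 in NPCs. *Slbp* was above it in both libraries. The introns of *Slbp* held 45 reads in ESCs, or 22.7% of its exon and intron reads (17.1 to 29.2%), and 56 in NPCs, or 17.6% (13.6 to 22.3%). *Eri1* and *Cstf2* were the lowest in NPCs, at 3.29% (1.66 to 5.82%) and 3.37% (2.10 to 5.10%). *Lsm10* had 0 intron reads in ESCs, which with 33 exon reads allows a share of up to 10.6%, and 3 in NPCs.

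Along the transcripts the placed reads lay towards the 5′ side of the middle but not at the very start. For the transcript of each gene with the longest coding sequence, 1296 of 2097 placed reads in ESCs began upstream of the midpoint, or 61.8% (59.7 to 63.9%), and 1774 of 2830 in NPCs, or 62.7% (60.9 to 64.5%). The reads placed were 2097 of 2378 in ESCs and 2830 of 3231 in NPCs, and most of those left out were from *Cstf2*, with 225 of 442 and 304 of 603 placed, since the transcript used lacks its long 3′ UTR. Counting the reads left out there as downstream would lower both pooled shares. The share of the median member was 62.3% in ESCs and 63.5% in NPCs, beside 54.7% and 52.7% for the median protein-coding gene, whose middle range ran from 43.5 to 66.7% in ESCs and from 41.2 to 64.6% in NPCs. The share was over 50% for 9 members in ESCs and for 8 in NPCs, where 60.7% and 55.5% of protein-coding genes were. *Eri1* had 80.1% (73.9 to 85.4%) in ESCs and 83.0% (78.4 to 87.0%) in NPCs, and *Lsm11* 77.5% (66.0 to 86.5%) and 71.1% (60.1 to 80.5%). In both of these the 3′ UTR is longer than the coding sequence, 3866 nt against 1035 nt in *Eri1* and 5347 nt against 1083 nt in *Lsm11*. *Cstf2*, placed on a transcript without its long 3′ UTR, had the lowest share in both libraries, 47.1% (40.4 to 53.9%) in ESCs and 48.4% (42.6 to 54.1%) in NPCs. Of the reads within coding sequences alone, 54.4% in ESCs and 53.9% in NPCs began upstream of the coding midpoint.

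**Figure D3:**
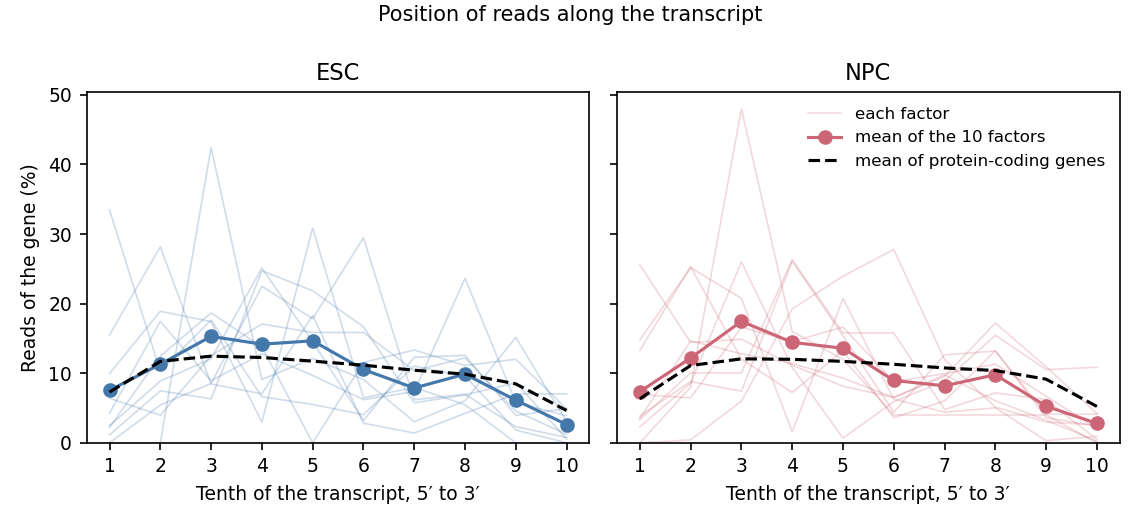
Share of the reads of a gene (y axis, percent) that begin in each of 10 equal bins of its transcript, from 5′ to 3′ (x axis), in ESCs (left) and NPCs (right). Thin lines are the 10 factors, thick lines with points their mean, and the dashed line the mean of protein-coding genes with at least 10 reads; the mean of the factors is highest in bin 3, at 15.3% in ESCs and 17.5% in NPCs, and lowest in bin 10, at 2.63% and 2.79%.

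Coding sequence was more densely covered than untranslated sequence. Summed over the set, coding sequences held 72.4 reads per kilobase in ESCs and 96.5 in NPCs, 3′ UTRs 23.0 and 33.2, and 5′ UTRs 11.0 and 9.93. The transcript used for *Cstf2* has a 3′ UTR of only 231 nt. The terminal exon block of *Cstf2*, 2588 nt with 198 ESC and 292 NPC reads, is thus largely left out of the 3′ UTR values. The coding sequence was denser than the 3′ UTR for all 10 members in ESCs and for 9 in NPCs, beside 76.2% and 70.2% of protein-coding genes with a 3′ UTR of at least 100 nt. The exception was *Cstf2* in NPCs, at 142.9 reads per kilobase in both regions. First exons held 5.69 reads per kilobase in ESCs and 6.10 in NPCs. Inner exons of up to 70 nt held 16.4 and 22.4 reads per kilobase, and 7 of these 11 exons had 0 reads in both libraries. Inner exons over 150 and up to 300 nt held 117.1 and 142.5, and none of those 30 was empty. The 5 inner exons over 300 nt held 56.8 and 81.3, below that class, and the 60 over 70 and up to 150 nt held 69.1 and 94.5. The authors aligned reads without splicing, so that a read of 48 nt has few places to fit inside a short exon; the part of this in the exon densities was not tested.

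Some members drew many reads from a few start positions. The reads of the set began at 1353 positions in ESCs and 1756 in NPCs, 1.76 and 1.84 reads per position. *Cpsf2* had the position with the most reads of the set, in its second exon, and a neighbour 2 nt upstream. The sequences from these positions are shown as examples of starts with several reads in 1 library or both, all from coding sequence of mm9, with a capital at each start position.
*Cpsf2*, plus strand, chr12:103220226-103220275: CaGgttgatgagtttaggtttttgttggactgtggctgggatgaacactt
*Slbp*, minus strand, chr5:33986416-33986464: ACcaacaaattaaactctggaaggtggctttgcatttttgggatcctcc
*Lsm10*, plus strand, chr4:125775138-125775185: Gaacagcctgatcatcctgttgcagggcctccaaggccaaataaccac
In *Cpsf2* the first capital had 16 ESC and 11 NPC reads, and the next capital had 31 and 39. In *Slbp* the first capital had 8 and 10 reads, and the next had 1 ESC read and 13 NPC reads. The single position of *Lsm10* had 0 ESC reads and 8 of the 25 NPC reads of this gene. Without the top position of each gene in each library the log2 ratio of *Lsm10* was -0.81, and that of *Cpsf2* was 0.71. At *Sympk*, 24 reads in ESCs and 1 in NPCs had sequences that also occur elsewhere in mm9. With sequences that occur once alone, the log2 ratio of *Sympk* was -0.08.

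At the 3′ end that these factors make, coverage of the histone genes fell mostly upstream of the stem-loop, and little was left past it. Summed over the 59 genes with a stem-loop, the coverage was 8097 RPM in ESCs and 5259 RPM in NPCs at 75 nt upstream of its first base. It was 693.2 and 543.0 RPM at 25 nt upstream and 310.7 and 165.2 RPM on the first base. At 20 nt downstream of the first base, past the stem-loop but where coverage was still falling, it was 9.36 and 5.91 RPM. At 23 nt downstream it was 3.75 and 3.64 RPM. At 50 nt downstream the order was reversed, with 6.79 RPM in ESCs and 13.4 RPM in NPCs. Windows of 50 nt were then compared, one that ends 50 nt before the stem-loop and one that begins 10 nt past it. In ESCs 48 reads lay past the stem-loop and 45825 in the upstream window, so that the downstream window held 0.105% (0.0772 to 0.139%) of both. In NPCs 81 reads lay past it and 28680 upstream, or 0.282% (0.224 to 0.350%). The downstream share was higher in the NPC library, with reads past the stem-loop in 34 genes against 27 in ESCs. The intervals of these shares do not overlap, but they count reads that share a start as separate. The reads past the stem-loop had 38 distinct starts in ESCs and 61 in NPCs, so the intervals do not settle the difference. Sequences that occur once gave 0.237% in ESCs and 0.447% in NPCs, in the same order. Counting each start position once gave 1.67% and 3.03%. The 50 nt per gene cap the distinct starts upstream, which were 2239 in ESCs and 1949 in NPCs, so this share cannot show whether the order holds.

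**Figure D4:**
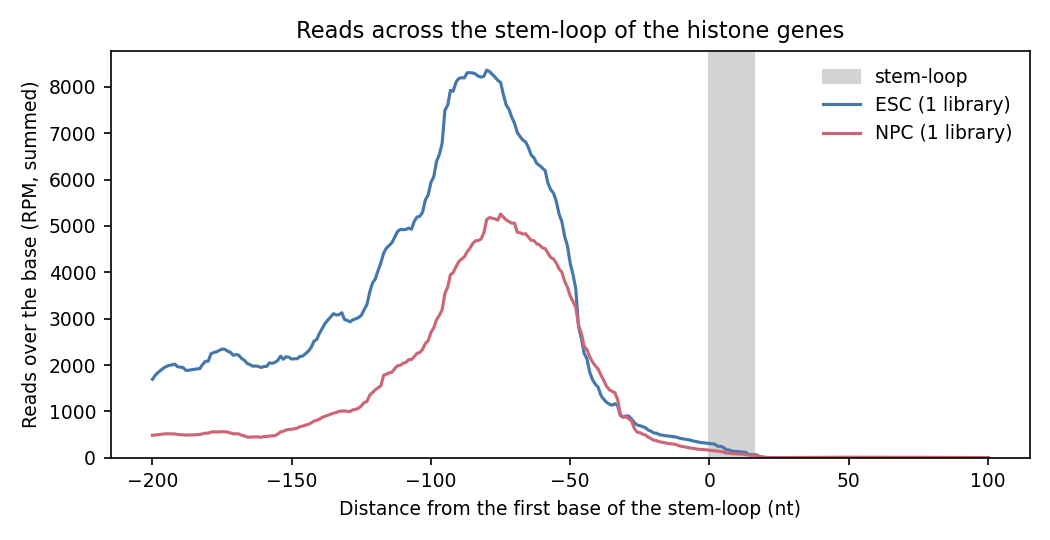
Reads over each base, in RPM summed over the 59 histone genes with a stem-loop (y axis, linear from 0), by distance from the first base of the stem-loop in nt (x axis), in the ESC and the NPC library. The grey band is the 16 nt of the stem-loop. Coverage falls from 8097 RPM in ESCs and 5259 RPM in NPCs at 75 nt upstream to 9.36 and 5.91 RPM at 20 nt downstream of its first base. At 50 nt downstream it is 6.79 RPM in ESCs and 13.4 RPM in NPCs.

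The histone genes and their factors had different ratios. Of the 66 replication-dependent histone genes with at least 10 reads, 64 were lower in NPCs, while 62.9% of all genes were higher. More than 2-fold lower were 40 of them, where 13.3% of all genes were, and the median log2 ratio of the 66 was -1.31. Summed, the histone genes held 27411 RPM in ESCs and 11558 RPM in NPCs. Many histone reads fit more than 1 place. In the window upstream of the stem-loop, 19342 of 45825 ESC reads and 16255 of 28680 NPC reads had sequences that occur once. The histone genes are therefore not all separate observations. The factors, at 556.7 and 734.4 RPM together, had no member more than 2-fold lower. The difference between these lists was not tested.

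The rest of the pathway was described with lists of its other known genes, to be read beside the 62.9% of all genes higher in NPCs, the 25.5% more than 2-fold higher and the 13.3% more than 2-fold lower. Around histone gene transcription, 15 of 22 genes were higher in NPCs, 6 of them more than 2-fold and none more than 2-fold lower, with a median log2 ratio of 0.47. The highest were *Ncbp2*, a subunit of the cap-binding complex, at 1.96 (1.44 to 2.51) from 38 and 152 reads, *E2f3*, an S phase transcription factor, at 1.82 (1.42 to 2.23) from 67 and 243 reads, and *Ccne2*, a cyclin E, at 1.57 (1.01 to 2.15) from 36 and 110 reads. The lowest were *E2f1* at -0.90, *Coil*, which encodes coilin of Cajal bodies, at -0.87, and *Whsc2*, a subunit of the negative elongation factor, at -0.65. *Ccna2*, a cyclin A, had the most reads, 1220 and 1165, a log2 ratio of -0.11.

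Among the 16 genes of the Sm ring and its assembly, 10 were higher in NPCs, where 62.9% of all genes were, and 2 were more than 2-fold higher, where 25.5% of all genes were, with a median of 0.35. *Wdr77*, part of the methylosome, was highest at 1.19 (0.91 to 1.47), then *Snrpd3* at 1.05 (0.60 to 1.51) and *Gemin7* at 0.78. *Gemin8* was lowest at -0.89 (-1.76 to -0.06), then *Snrpg* at -0.42 and *Snrpd2* at -0.40. *Snrpb*, an ordinary Sm protein gene, had the most reads, 580 and 772. Of the 18 other cleavage and polyadenylation genes 12 were higher in NPCs, none was more than 2-fold apart, and the median was 0.27. *Rbbp6* at 0.79, *Cstf2t*, the retroposed paralogue of *Cstf2*, at 0.77 and *Fip1l1* at 0.69 were highest. *Cpsf1*, the large subunit of the specificity factor, was lowest at -0.61 (-0.79 to -0.44), then *Papolg* at -0.28 and *Pabpn1* at -0.22. *Papola*, the poly(A) polymerase gene with the most reads of this list, was at 0.49 from 1061 and 1540 reads.

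Genes of histone mRNA decay and translation had the highest median of the pathway lists, 0.50, with 23 of 27 higher in NPCs, beside 62.9% of all genes, and 3 more than 2-fold higher, beside 25.5% of all genes. These were *Lsm7* at 1.46 (0.05 to 3.09) from only 6 and 17 reads, the translation factor gene *Eif4g1* at 1.25 (1.18 to 1.33) from 2278 and 5600 reads, and *Exosc10*, a nuclear exosome nuclease gene, at 1.01 (0.64 to 1.39). *Lsm4* at -0.56 and *Dis3l2* at -0.49 were the lowest. The S phase list, which carries the replication machinery that histone supply accompanies, had the lowest median, -0.01, with 12 of 26 genes higher in NPCs, 1 more than 2-fold higher and 1 more than 2-fold lower. *Tyms*, the thymidylate synthase gene, was highest at 1.32 (0.82 to 1.84), then *Cdt1* at 0.72 and *Fen1* at 0.70. *Pold1*, a DNA polymerase delta subunit gene, was lowest at -1.39 (-1.66 to -1.14) from 434 and 170 reads, then *Gins1* at -0.85 and *Lig1* at -0.57. *Mcm5*, a helicase subunit gene, had the most reads, 1143 and 1211, a log2 ratio of 0.04.

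**Figure D5:**
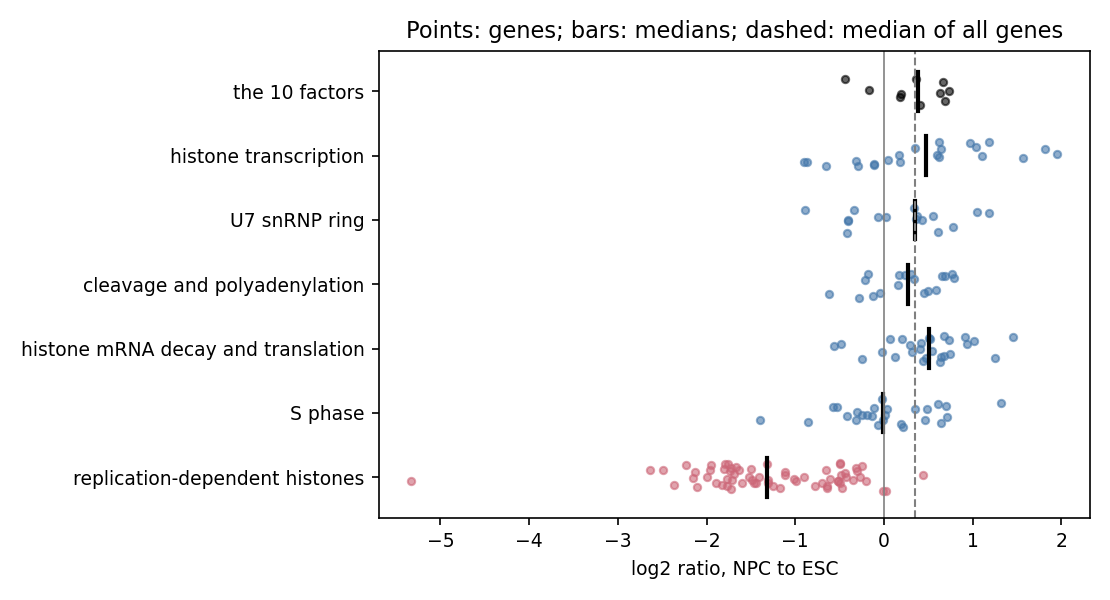
Log2 ratio of NPC to ESC (x axis) of each gene with at least 10 reads in both libraries together, by list (y axis, with a small random vertical shift to separate points). Bars are medians and the dashed line is the median of all genes at 0.35; the 10 factors lie between -0.44 and 0.73, while 64 of the 66 histone genes lie below 0.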

How the data were processed

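The authors removed poly(A) and ribosomal RNA, fragmented the remainder with RNase III, sequenced it on SOLiD, aligned the reads to mm9 with Bowtie (per the submitters' processing notes; version not given in the sources used here), kept a best placement for reads with several, and filtered out mitochondrial, ribosomal and Repeat Masker reads. The deposited placements give each read on a line of its own with its position, strand and sequence. They held 0 mitochondrial reads, and 3.77% of ESC and 4.23% of NPC intervals were shorter than 48 nt.

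Reads were counted over GENCODE M1 exons and scaled by library totals. Of the *Cstf2* reads, 3 in NPCs also overlapped another gene. Counts have exact Poisson, shares Clopper-Pearson and ratios conditional binomial intervals. The members and gene lists were chosen with earlier results of these data known. Named are every member, the 3 highest, the 3 lowest and the most abundant gene of each pathway list among those with at least 10 reads, the U7 genes and 1 histone gene. A gene that this rule names is not reported here. Genes given among the markers, head-to-head neighbours and single positions were chosen after their values were seen. *Gemin2* and *Sox1* were not found by name. Counting and intervals were tested on simulated data. Python 3.11.15, NumPy 2.4.6, SciPy 1.17.1, pandas 2.3.3, pysam 0.24.0, SAMtools 1.23.1 and matplotlib 3.10.9 were used.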

Additional observations from a re-analysis of the deposited data

How the results depend on the processing

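The number of members higher in NPCs was 8 under every alternative except scaling by the median gene, where it was 6, and their median log2 ratio then fell from 0.38 to 0.05. That scaling moved every log2 ratio down by the same amount and put *Lsm11* and *Cpsf3* below 0, at -0.16 and -0.14. Scaling outside the 10 genes with the most reads, which held 9.22% of ESC and 3.88% of NPC reads, gave a median of 0.30. No member was more than 2-fold apart except under counting of coding sequence only, where 1, *Eri1*, was. Counting each start once and scaling by the starts of each library, which was added once the data had been seen, gave a median of 0.09. The share of all genes more than 2-fold apart was 34.8% with at least 50 reads and 49.8% with at least 1 read. The share of members' reads upstream of the midpoint was 59.7% in ESCs and 59.6% in NPCs with distinct starts, and 54.4% and 53.9% within coding sequence. The share past the stem-loop was 1.67% in ESCs and 3.03% in NPCs with distinct starts and 0.237% and 0.447% with sequences that occur once. With each start counted once the medians of the histone transcription, Sm ring, cleavage, decay and translation, and S phase lists were 0.22, 0.15, 0.15, 0.39 and -0.02. No paired analysis was possible because each group has 1 library. Depth limits *Lsm10* most, with 33 and 25 reads, and no alternative addresses variation between cultures.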
